A study of Mus musculus with 23 samples.

Results

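The mouse genome assembly mm10 holds, beside its assembled chromosomes, short sequences that could not be set in their place. An unlocalised sequence is known to belong to a chromosome but has no position on it, and an unplaced sequence has no chromosome at all. Such sequences are commonly rich in repeats and in recently duplicated gene families. Their names begin with GL or JH. In CUT&Tag, an antibody directs a transposase to cut and tag DNA near its target, and places with many tagged fragments are called as peaks. All intervals of the 4 merged peak lists whose sequence name was not 1 to 19, X, Y or MT were taken, and they are described here. There were 338 of them, of 29404 intervals in all. The rule used the name alone, with no measured value.

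The lists come from CD4+ naive T cells of spleen and pLN, of DDX55 KO and WT mice. Per the labels, 2 KO and 2 WT samples share each list for DDX55, for H3K9me3 and for RNA polymerase II. The R-loop list, from S9.6, an antibody to DNA-RNA hybrids, is shared by 4 KO and 4 WT samples, and 4 of these 8 received 20 U of RNase H, an enzyme that removes the RNA of such hybrids. The other 3 of the 23 samples, 2 for an HA tag and 1 for IgG and all WT, have no list used here. The DDX55 list thus also draws on cells labelled as lacking DDX55. The labels give neither the age of the mice nor how the knockout was made, nor whether the samples of 1 group are of different mice. The intervals, 1 list per target, pool both genotypes, with a start and an end but no height. The depth is therefore unknown, and neither a KO against WT difference nor a spread between replicates could be measured.

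H3K9me3 is the histone mark of constitutive heterochromatin, which packs repeats and clustered gene families. R-loops form where RNA pairs with 1 DNA strand and displaces the other, often behind transcribing RNA polymerase II, and at repeats. DDX55 is a DEAD-box RNA helicase, known in human cells for its role in making the large ribosomal subunit. A read from a repeated sequence can fit several copies. How such reads were treated is not given in the sources used here, so an interval on these sequences need not come from that copy alone, and the part this played in the results was not tested.

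DDX55 had the largest share of its intervals on these sequences, and RNA polymerase II the smallest. They held 26 of 243 DDX55 intervals (10.7%, exact Clopper-Pearson 95% interval 7.11 to 15.3) and 26 of 1499 R-loop intervals (1.73%, 1.14 to 2.53). They held 24 of 10924 RNA polymerase II intervals (0.220%, 0.141 to 0.327) and 262 of 16738 H3K9me3 intervals (1.57%, 1.38 to 1.76). The 95% interval of the DDX55 share does not overlap the 95% intervals of the other 3 shares. These 95% intervals cover counting error only, and neighbouring peaks are not independent. In covered sequence, DDX55 had 22.5 kb here, 15.8% of all it covered, R-loop 38.2 kb (2.93%), RNA polymerase II 17.5 kb (0.220%) and H3K9me3 448 kb (3.25%). The DDX55 shares rest mostly on 1 sequence, JH584304.1, which held 15 of the 26 intervals and 79.5% of their bases. It held 65.3% of the R-loop, 68.6% of the RNA polymerase II and 14.0% of the H3K9me3 bases counted here.

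Intervals lay on 30 of the 44 GL and JH sequences of mm10, 11 of 22 unlocalised and 19 of 22 unplaced ones. H3K9me3 was present on 29, DDX55 on 7, R-loop on 6 and RNA polymerase II on 5. On 16 sequences H3K9me3 was the single mark, and 13 held at least 2 lists. JH584304.1, an unplaced sequence, was the single one with all 4, and GL456210.1 and GL456394.1 held 3. On GL456359.1 the only interval was RNA polymerase II, 219 bp at 19669 to 19887. The lists hold no interval on the unlocalised sequence of chromosome 7 (GL456219.1), nor on the 4 of chromosome Y.

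**Figure D1:**
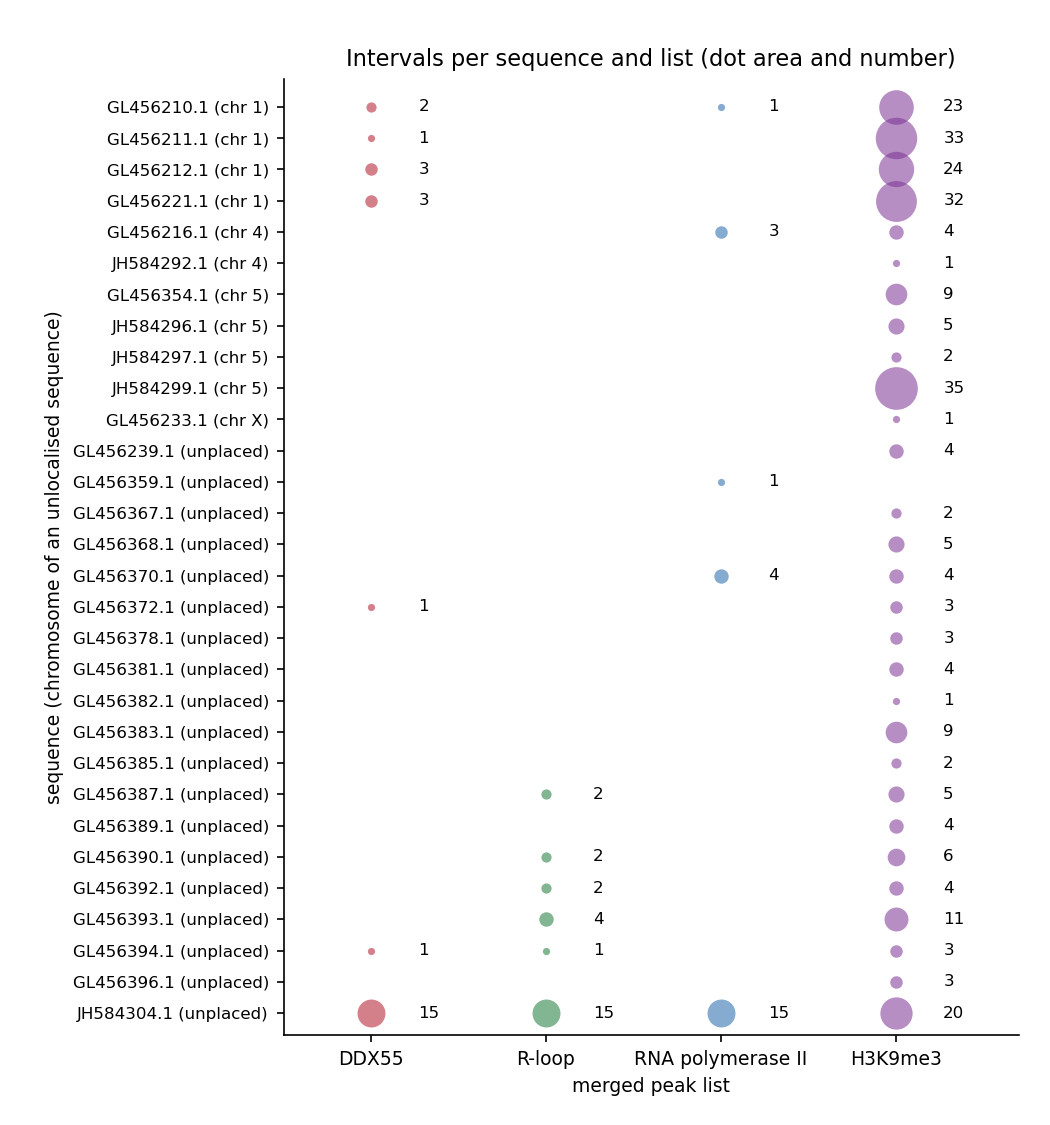
Number of intervals of each merged list (columns) on each of the 30 sequences with an interval (rows, with the chromosome of an unlocalised sequence in brackets). Dot area and the number beside it give the count. JH584304.1 in the last row holds 15, 15, 15 and 20, and the 4 sequences of chromosome 1 at the top hold 23 to 33 H3K9me3 intervals and no R-loop interval.

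Intervals here were wider than on chromosomes for H3K9me3 and R-loop. The median H3K9me3 width was 1260.5 bp on these sequences and 606 bp on chromosomes 1 to 19, X and Y, 2.08 times as wide, and 199 of 262 (76.0%, 95% interval 70.3 to 81.0) exceeded the median of the whole list, 611 bp, against 49.5% of chromosomal intervals (48.7 to 50.3). The median R-loop width was 1119.5 bp here and 524 bp on chromosomes, with 19 of 26 (73.1%, 52.2 to 88.4) and 49.5% (46.9 to 52.1) above the list's median of 528 bp. The median DDX55 width was 600 bp here and 432 bp on chromosomes. The shares above the list's median, 65.4% (44.3 to 82.8) and 47.4% (40.6 to 54.3), have overlapping 95% intervals. All 95% intervals of these shares take peaks as independent, which neighbouring peaks are not. Without JH584304.1, the sequence with most DDX55 intervals, the DDX55 median here was 430 bp, so the higher median rests on that sequence. RNA polymerase II had a median of 470 bp here and 638 bp on chromosomes, with shares of 41.7% (22.1 to 63.4) and 49.9% (48.9 to 50.8). Neighbours of a list also lay closer here. The median gap to the next interval was 4218 bp on these sequences and 35073 bp on chromosomes for H3K9me3, and 3329 bp and 291992 bp for DDX55. A gap on a short sequence cannot be long, so the gaps are not comparable as densities.

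**Figure D2:**
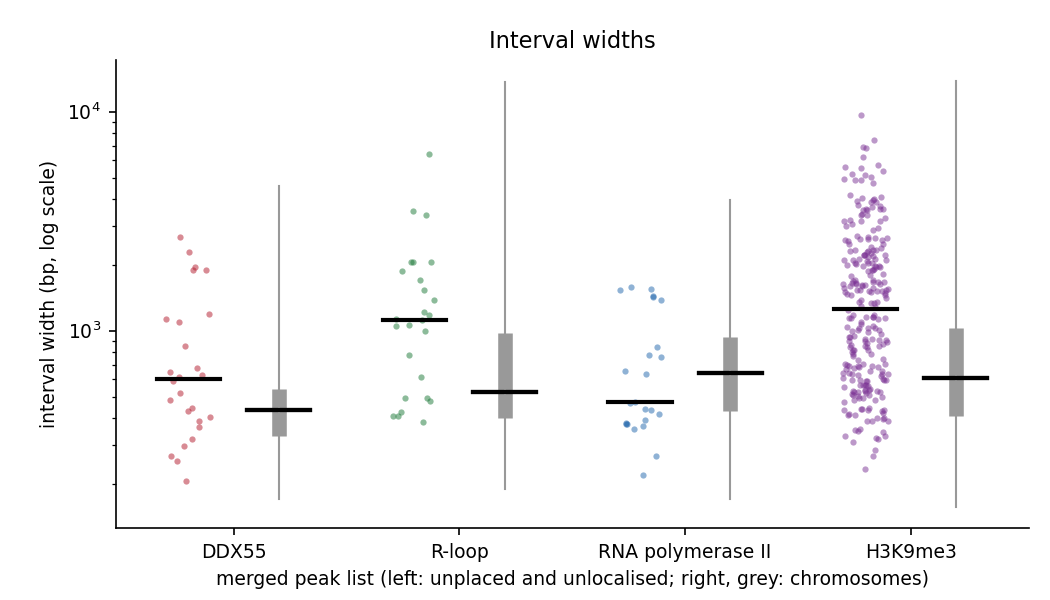
Width of each interval in bp on a log scale. Coloured points on the left of each pair are the intervals on unplaced and unlocalised sequences. On the right, for chromosomes 1 to 19, X and Y, the thin grey line gives the range and the thick one the quartiles. Black bars are medians, 1260.5 bp on the left and 606 bp on the right for H3K9me3, and 470 bp and 638 bp for RNA polymerase II.

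JH584304.1 held 65 of the intervals, with 15 of the 26 DDX55, 15 of the 26 R-loop, 15 of the 24 RNA polymerase II and 20 of the 262 H3K9me3 intervals. The DDX55 intervals on this sequence alone made up 12.6% of all bases in the DDX55 list. Between the first and the last base of any interval, a stretch of 113.4 kb, H3K9me3 covered 55.3%, R-loop 22.0%, DDX55 15.8% and RNA polymerase II 10.6%. Bases under all 4 lists came to 4374, or 3.86% of the stretch, and 42.0% lay under none.

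The stretch was not alike from end to end. All 15 DDX55 and all 15 RNA polymerase II intervals ended by base 67566, the end of the last DDX55 interval, and the last RNA polymerase II interval ended at 67563. R-loop had 4 intervals up to there and 11 beyond it, and H3K9me3 10 and 10. The bound was set after the positions were seen. Up to it, over 67.2 kb, H3K9me3 covered 53.7%, DDX55 26.6%, RNA polymerase II 17.9% and R-loop 15.6%. Beyond it, over 46.2 kb, H3K9me3 covered 57.5% and R-loop 31.3%, with no DDX55 or RNA polymerase II interval. The R-loop intervals beyond it were 382 to 3388 bp wide, and each lay inside H3K9me3. Pairs of them shared 1 H3K9me3 interval at 68502 to 73436, at 92931 to 98545 and at 108869 to 113749.

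**Figure D3:**
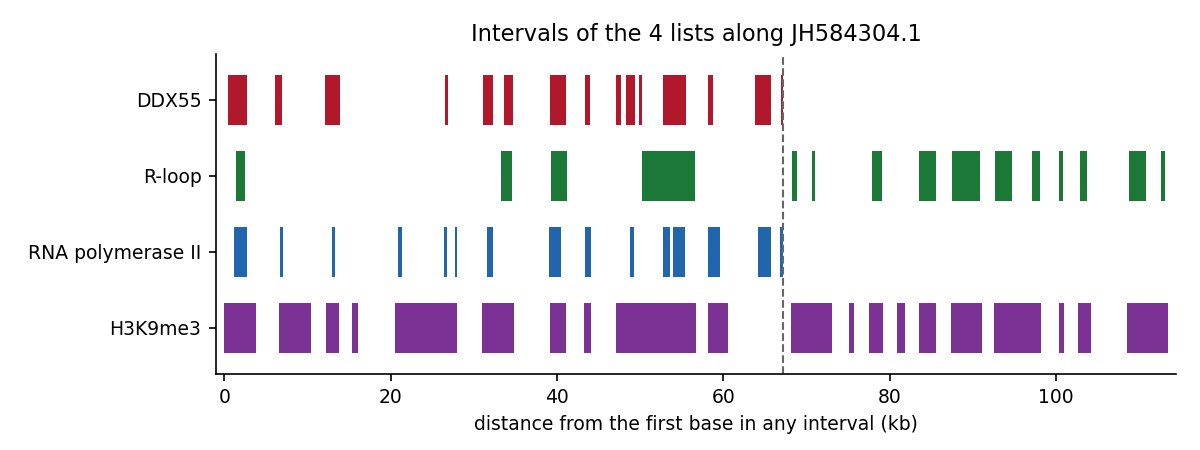
Intervals of the 4 lists along JH584304.1, as distance in kb from the first base of any interval. Each box is 1 interval, drawn to scale, and the dashed line marks the end of the last DDX55 interval. Left of the line lie all 15 DDX55 and all 15 RNA polymerase II intervals, and right of it 11 R-loop and 10 H3K9me3 intervals.

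Most RNA polymerase II intervals of JH584304.1 coincided with DDX55 intervals. There, 12 of 15 DDX55 intervals met an RNA polymerase II interval and 13 of 15 RNA polymerase II intervals met a DDX55 interval, and 82.9% of the RNA polymerase II bases lay under DDX55. Their borders were close in several cases. Both began at base 53118, where DDX55 ran to 55807 and RNA polymerase II in 2 pieces to 53876 and from 54331 to 55758. DDX55 at 43696 to 44370 lay beside RNA polymerase II at 43761 to 44393, and DDX55 at 67248 to 67566 beside RNA polymerase II at 67210 to 67563. Over the 14 coinciding pairs on all sequences, the starts lay a median of 252.5 bp apart and the ends 133.5 bp, and 6 starts and 7 ends lay within 100 bp. The DDX55 intervals at 34016 to 35108, 47438 to 48050 and 50163 to 50567 met no RNA polymerase II. The RNA polymerase II intervals at 21258 to 21675 and 28028 to 28295 met no DDX55 interval, though both met H3K9me3.

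Places are intervals of all lists joined where they share at least 1 bp. On unplaced and unlocalised sequences there were 270 places, of which 228 held 1 list, 32 held 2, 6 held 3 and 4 held all 4. H3K9me3 stood alone at 222 places and RNA polymerase II at 6, while DDX55 and R-loop never did. All 4 of the last kind lay on JH584304.1. The first ran from 359 to 4120, with RNA polymerase II from 1497 to 3048, R-loop from 1809 to 2800 and DDX55 from 806 to 3082 inside H3K9me3. The second, from 31298 to 35154, held a pair of DDX55 intervals, of which the first met RNA polymerase II and the other met R-loop, all inside 1 H3K9me3 interval. The third, from 39436 to 41491, was the tightest, with DDX55 from 39526 to 41473, R-loop from 39618 to 41491, RNA polymerase II from 39436 to 40812 and H3K9me3 from 39499 to 41481. The fourth, from 47428 to 57058, was a single H3K9me3 interval of 9631 bp, the widest on these sequences, with 4 DDX55 intervals, 3 of RNA polymerase II and 1 of R-loop. It also contained the widest DDX55 interval, 2690 bp, and the widest R-loop interval, 6399 bp from 50564 to 56962. Chromosomes held 28482 places, of which 39 held 3 lists and 20 all 4 (0.0702%, against 1.48% of the places here). DDX55 stood alone at 40 of the places on chromosomes and R-loop at 1170.

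Places with DDX55, RNA polymerase II and H3K9me3 but no R-loop numbered 6. All but 1 lay on JH584304.1, at 6412 to 10772, 12412 to 14296, 20882 to 28295, 43615 to 44460 and 58459 to 60888. The other lay on GL456210.1 at 4037 to 5035, where DDX55 (4127 to 4773) and RNA polymerase II (4253 to 5030) overlapped by 521 bp. DDX55 and RNA polymerase II also met without H3K9me3 at 2 places of JH584304.1. These ran from 64154 to 66065 and from 67210 to 67566, in the gap between the H3K9me3 intervals that end at 60888 and begin at 68502. They were the only DDX55 intervals on any of these sequences that met no H3K9me3.

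The gene table of the assembly lists the transcribed pseudogene Pisd-ps3 (gene 66776) at 52674 to 59689, a copy of Pisd, which encodes the mitochondrial phosphatidylserine decarboxylase. It gives the sequence as unknown. JH584304.1 was the only unplaced sequence whose intervals reached that far, since the highest end on any other was 55595, but the table itself does not name it. The last interval does not give the length of a sequence, and only 19 of 22 unplaced sequences held an interval. Another sequence could therefore hold the gene. If the coordinates are those of JH584304.1, H3K9me3 covered 79.7% of the 7016 bp span, R-loop 61.1%, RNA polymerase II 48.7% and DDX55 45.7%. The R-loop interval from 50564 to 56962 would begin below the span and end inside it. The widest DDX55, R-loop and H3K9me3 intervals of all these sequences would each meet it.

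Both pseudogene copies on chromosomes carried the same lists but for R-loop. At Pisd-ps1 (gene 236604, chromosome 11, 3124002 to 3131945) DDX55 lay at 3127006 to 3127519, inside H3K9me3 at 3126998 to 3127564, and around RNA polymerase II at 3127080 to 3127382. A second DDX55 interval, 516 bp from 3132079, lay just above its upper end, inside H3K9me3 at 3132069 to 3134003. At Pisd-ps2 (gene 328734, chromosome 17, 3064318 to 3084183) DDX55 at 3081525 to 3082430, H3K9me3 at 3081513 to 3082425 and RNA polymerase II at 3081584 to 3082426 nearly matched in extent. The parent gene Pisd (gene 320951, chromosome 5, 32736301 to 32785642) had RNA polymerase II at its upper end, 641 bp from 32785197, and 0 DDX55 intervals within 1000 bp. It also had H3K9me3 at 32739664 to 32740454 with an R-loop interval of 215 bp inside. Pisd-ps3 was named as a member of a listed gene family, while the copies on chromosomes were added after the positions were seen. No test was made.

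**Figure D4:**
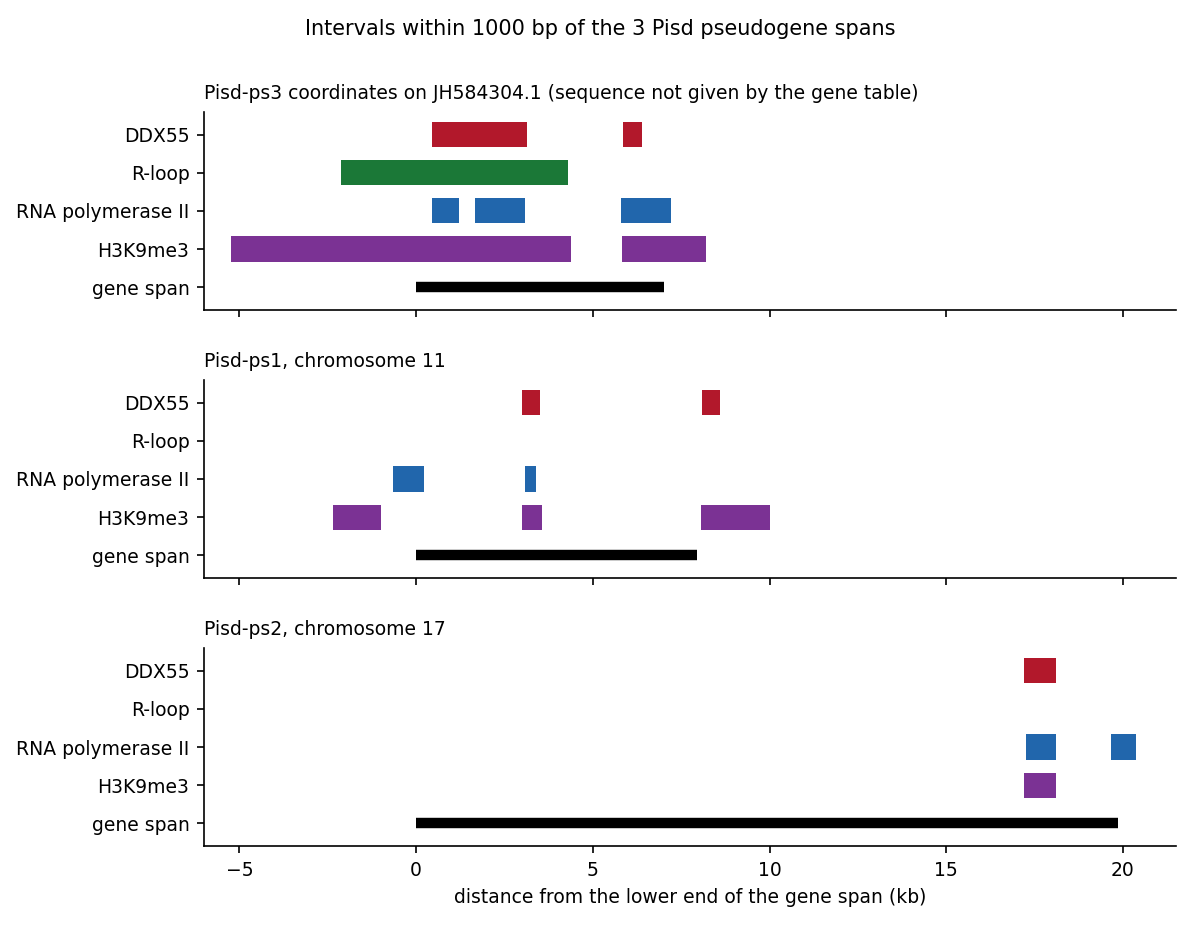
Intervals within 1000 bp of the spans of 3 Pisd pseudogenes, as distance in kb from the lower end of each span (black bar). Each box is 1 interval, drawn to scale. DDX55, RNA polymerase II and H3K9me3 share a place in all 3 panels, while an R-loop interval (6399 bp) is present in the top panel alone. The gene table does not name the sequence of Pisd-ps3.

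Of the 5 unlocalised sequences of chromosome 1, 4 held intervals, and these 4 held 112 of the 262 H3K9me3 intervals, with 33 on GL456211.1, 32 on GL456221.1, 24 on GL456212.1 and 23 on GL456210.1. They covered 189.3 kb. In the stretch between the first and last interval, H3K9me3 covered 36.7% of GL456212.1, 28.9% of GL456221.1, 25.4% of GL456211.1 and 17.2% of GL456210.1. These sequences also held 9 DDX55 intervals, each inside an H3K9me3 interval, 1 RNA polymerase II interval and 0 R-loop intervals. DDX55 lay at 128726 to 129155, 129987 to 130573 and 140428 to 140791 of GL456221.1, and the third was inside the H3K9me3 interval of 6898 bp at 138706 to 145603. The others were on GL456212.1 (73339 to 73782, 101741 to 102221 and 151342 to 151547), GL456210.1 (4127 to 4773 and 33960 to 34214) and GL456211.1 (175422 to 176048). None was wider than 647 bp, against a median of 1093 bp on JH584304.1.

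The gene table lists Csprs (gene 114564), a multi-copy gene related to the nuclear body gene Sp100, at 111558 to 163011 under chromosome 1. The table does not name the sequence, and positions this low on the assembled chromosome fall in a gap, so the unlocalised ones are the candidates. At those coordinates GL456221.1 had 10 H3K9me3 intervals (28139 bp) and 3 DDX55 intervals, GL456212.1 had 8 (16838 bp) and 1, GL456211.1 had 10 (16389 bp) and 0, and GL456210.1 had 10 (10297 bp) and 0. Whichever of these 4 sequences holds it, H3K9me3 lay within the coordinates of Csprs. The last interval on GL456212.1 ended at 152861, below the upper end of the gene at 163011. The lengths of the candidate sequences were not checked, so some may be too short to hold the gene. On GL456213.1, the fifth, there was no interval.

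H3K9me3 density varied widely among these sequences. Windows of 100 kb were compared only where a whole window ended before the last interval of its sequence, which gave 19. Sequence beyond that interval, and sequences without an interval, gave no window, so stretches without H3K9me3 are under-counted here. H3K9me3 covered 55.6% of the first window of JH584304.1 and 35.9% of bases 100001 to 200000 of GL456221.1. None of 27203 windows on chromosomes was as covered as these 2. The second window of GL456211.1 followed with 28.4%, which 1 chromosomal window matched or exceeded. At the other end, 4 windows on sequences of chromosome 5 held no H3K9me3. The first window of GL456354.1 had 0.687%, and 5475 chromosomal windows were as covered. The windows of JH584299.1 with H3K9me3 had between 1.40% (bases 500001 to 600000, with 3290 as covered) and 11.9% (600001 to 700000, with 59). The fullest chromosomal window, on chromosome 1 from 85200001 to 85300000, reached 33.6%, and the mean was 0.487%. DDX55 covered 17.9% of the first window of JH584304.1 against at most 6.73% on chromosomes, in the window of chromosome 11 from 3100001 that holds Pisd-ps1. RNA polymerase II covered 12.03% there, and 1 chromosomal window had as much (12.9%, chromosome 6 from 48700001). R-loop covered 21.2%, and 6 chromosomal windows had as much, led by chromosome 12 from 115200001 with 35.8%.

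R-loop intervals away from JH584304.1 lay on 5 unplaced sequences, each time wholly inside an H3K9me3 interval. GL456393.1 had 4, GL456387.1, GL456390.1 and GL456392.1 had 2 each, and GL456394.1 had 1. The widest of these, 3501 bp at 1141 to 4641 of GL456387.1, lay inside an H3K9me3 interval of 5011 bp at 579 to 5589. On GL456393.1 the R-loop intervals at 463 to 1576, 6139 to 7520, 9892 to 10316 and 39973 to 41679 each fell in a different H3K9me3 interval. No DDX55 interval met an R-loop interval outside JH584304.1. GL456394.1, which held both, had R-loop at 20127 to 20616 and DDX55 at 23728 to 24023, in different H3K9me3 intervals. GL456372.1 held DDX55 at 27765 to 28031, inside the H3K9me3 interval from 26913 to 28442, and no R-loop. RNase H-treated and untreated samples share 1 list, so whether these intervals are sensitive to that enzyme is not known.

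All 26 R-loop intervals met H3K9me3 (100%, 95% interval 86.8 to 100), and 25 of the 26 lay wholly inside, against 18.4% of chromosomal R-loop intervals that met it (16.4 to 20.5). On the 6 sequences with an R-loop interval, H3K9me3 covered from 31.5% (GL456394.1) to 57.4% (GL456387.1) of the stretch between the outermost intervals. The part of that coverage in the share was not tested. For DDX55, 24 of 26 met H3K9me3 (92.3%, 74.9 to 99.1), against 66.0% on chromosomes (59.3 to 72.3). DDX55 met RNA polymerase II in 13 of 26 cases (50%, 29.9 to 70.1), against 42.3% on chromosomes (35.6 to 49.2), and R-loop in 5 of 26 (19.2%, 6.55 to 39.4), against 11.2% (7.28 to 16.2). Both of these pairs of 95% intervals overlap, but they take peaks as independent, which neighbouring peaks are not. One of the 5 pairs with R-loop shared only 4 bp. Seen from the other side, R-loop met DDX55 in 4 of 26 cases (15.4%, 4.36 to 34.9), against 1.56% on chromosomes, and RNA polymerase II in 3 of 26 (11.5%, 2.45 to 30.2), against 3.46%. H3K9me3 met DDX55 in 19 of 262 cases (7.25%, 4.42 to 11.1), against 0.771% on chromosomes. It met R-loop in 23 (8.78%, 5.65 to 12.9), against 1.63%, and RNA polymerase II in 12 (4.58%, 2.39 to 7.86), against 0.558%.

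RNA polymerase II on chromosomes seldom met another list. Here it met H3K9me3 in 16 of 24 cases (66.7%, 44.7 to 84.4), against 0.890% on chromosomes (0.722 to 1.08), and DDX55 in 14 of 24 (58.3%, 36.6 to 77.9), against 0.826% (0.665 to 1.01). It met R-loop in 4 of 24 (16.7%, 4.74 to 37.4), against 0.532% (0.404 to 0.687). These shares rest largely on 1 sequence. Without JH584304.1, RNA polymerase II met H3K9me3 in 3 of 9 cases, DDX55 in 1 of 9 and R-loop in 0 of 9. DDX55 then met RNA polymerase II in 1 of 11 cases and R-loop in 0 of 11, while all 11 still met H3K9me3. All 11 R-loop intervals did so too. H3K9me3 without that sequence met DDX55 in 10 of 242 cases (4.13%), R-loop in 11 (4.55%) and RNA polymerase II in 3 (1.24%). The lists were not compared with a random placement.

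**Figure D5:**
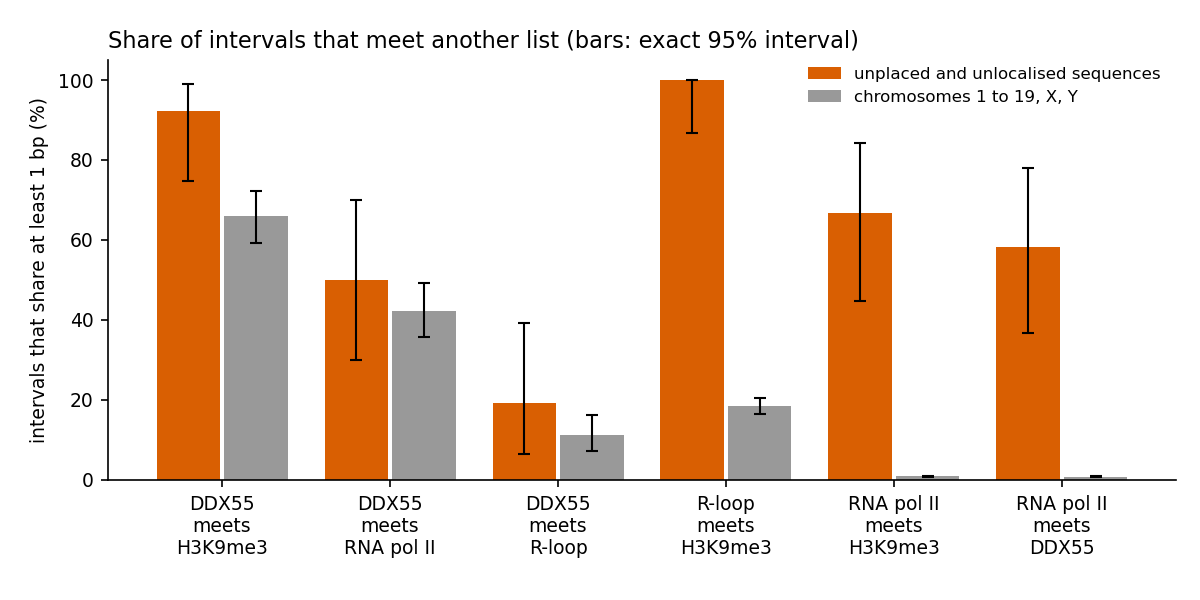
Percent of intervals that share at least 1 bp with another list, on unplaced and unlocalised sequences (orange) and on chromosomes 1 to 19, X and Y (grey). Error bars are exact 95% intervals. R-loop met H3K9me3 in 100% and 18.4%, and RNA polymerase II met H3K9me3 in 66.7% and 0.890%.

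RNA polymerase II away from JH584304.1 was at 9 places, of which 6 met no other list. GL456216.1, an unlocalised sequence of chromosome 4, held 3, with the widest of all these intervals, 1584 bp at 15776 to 17359, around an H3K9me3 interval of 936 bp at 16170 to 17105. The next, 846 bp at 31941 to 32786, stopped 195 bp short of an H3K9me3 interval that begins at 32982, and the third, 469 bp at 41323 to 41791, lay 6269 bp from one. The gene table lists Dhrsx (gene 236082), which encodes a short-chain dehydrogenase, at 14351 to 36213 under chromosome 4 with no sequence name. The first 2 of these intervals would lie inside it if it is on GL456216.1, which was not settled here, and Dhrsx was chosen after the positions were seen. GL456370.1 held 4 short RNA polymerase II intervals of 375 to 471 bp, of which the one at 7899 to 8278 met H3K9me3.

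H3K9me3 alone marked most of the remaining sequences. On JH584299.1, of chromosome 5, it had 35 intervals, the most of any sequence, but they were short (median 780 bp, widest 2598 bp) and covered 5.44% of the stretch from 246954 to 912001. GL456354.1, JH584296.1 and JH584297.1, also of chromosome 5, held 9, 5 and 2. Unplaced sequences with H3K9me3 alone ranged widely. It covered 60% of the stretch on GL456396.1, 45.5% on GL456367.1, 39.4% on GL456383.1, 37.9% each on GL456381.1 and GL456389.1, 30.7% on GL456368.1, 30.6% on GL456239.1, 18.7% on GL456378.1 and 4.21% on GL456385.1. The stretch runs only between the outermost intervals, so few or clustered intervals raise the share. These shares are thus not densities of whole sequences. GL456382.1 held a single interval of 492 bp. Of the 10 widest H3K9me3 intervals, 3 lay on JH584304.1, with 9631, 7404 (20882 to 28285) and 5615 bp, and 2 on GL456221.1, with 6898 and 5704 bp (115001 to 120704). The others were on GL456396.1 (6839 bp, 8755 to 15593), GL456383.1 (6237 bp, 96 to 6332), GL456211.1 (5543 bp, 112120 to 117662), GL456393.1 (5357 bp, 50239 to 55595) and GL456212.1 (5197 bp, 82556 to 87752). On GL456233.1, of chromosome X, a single interval of 599 bp lay at 45618 to 46216. The gene table puts Vamp7 at 10737 to 39191 and Spry3 at 101352 to 110912 under chromosome X, so in those coordinates it would lie between them, again with no sequence named. It also lists 6 Vmn1r genes and pseudogenes, of a family of vomeronasal pheromone receptors, at low positions under chromosome 7, where the unlocalised sequence held no interval.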

How the data were processed

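The values are sequence name, start and end in bp of CUT&Tag peaks, another unit than counts or signal, in 4 merged lists that the authors deposited. The submitters' processing notes name the build mm10 and, with no role or order, MACS3 3.0.0b1, Bowtie2 2.5.0, ChIPseeker 1.30.3, fastp 0.12.4 and SAMtools 1.15.1. Thresholds, the way samples were merged, and the handling of controls and of reads that fit several places are not given in the sources used here. Starts were set to 1-based positions. Intervals that shared at least 1 bp were taken to coincide. The overlap code (Python 3.11.15, numpy 2.4.6, pandas 2.3.3) was tested on simulated data and checked against bedtools 2.31.1, and scipy 1.17.1 gave the Clopper-Pearson intervals. The chromosome of an unlocalised sequence was written by hand from knowledge of the mm10 names, with no assembly report to check it, and every statement on such a chromosome rests on that. Gene positions come from a RefSeq table of GRCm38.p6, which is the same build, patched. Mitochondrial intervals, 6 in all, were left out.

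Sequences with at least 2 lists and the 5 others with most H3K9me3 intervals were described, with the widest intervals per list, all places with 3 or 4 lists, and genes of listed families with copies on such sequences. Anything else was chosen after its position was seen. The members and lists were chosen with earlier results of these data known. No test was made, since peaks are not replicates. Alternatives were other overlap rules, the wider 50% of each list, intervals within 1000 bp joined, and leaving out the sequence with most intervals. Leaving out JH584304.1 from H3K9me3 was added after seeing the data.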

Additional observations from a re-analysis of the deposited data

How the results depend on the processing

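Shares were compared with their 95% interval, counts with a range of 1.5 times and median widths with the SD of the widths. The 95% interval takes peaks as independent, which neighbouring peaks are not, so it may be too narrow. Under the alternatives, 75 values stayed within these limits and 22 moved beyond them. The SD of single widths is a wide limit for a median. The DDX55 median stayed within it without JH584304.1, though it fell from 600 to 430 bp. Leaving out the sequence with most intervals of the list (JH584304.1 for all but H3K9me3, where it is JH584299.1) moved DDX55 meeting R-loop to 0%, RNA polymerase II to 9.09% and H3K9me3 to 100%. It moved R-loop meeting DDX55 to 0% and RNA polymerase II to 0%, and RNA polymerase II meeting DDX55 to 11.1%, R-loop to 0% and H3K9me3 to 33.3%. JH584299.1 holds no other list, so leaving it out says nothing about the H3K9me3 shares. Leaving out JH584304.1 instead, chosen after seeing the data, moved H3K9me3 meeting DDX55 to 4.13%, R-loop to 4.55% and RNA polymerase II to 1.24%. With 50% of each of both intervals shared, H3K9me3 was met by 19.2% of DDX55, 46.2% of R-loop and 20.8% of RNA polymerase II intervals, and H3K9me3 intervals met DDX55 in 1.91%, R-loop in 4.58% and RNA polymerase II in 1.91% of cases. H3K9me3 intervals are wider than the others, so this rule leaves fewer pairs by its construction. With the wider 50% of each list, RNA polymerase II met DDX55 in 80% and R-loop in 40% of cases, 17 DDX55 and 10 RNA polymerase II intervals were left, and 6 places held 3 or more lists, against 10. Sharing at least 100 bp or 50% of the shorter interval, and joining intervals within 1000 bp, moved none of the values past these limits. No paired analysis was possible because the lists hold no values per sample. The depth behind each interval is unknown.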
